A study of Mus musculus with 30 samples.

Results

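Timp2, Timp3, Timp4, Mmp2, Mmp9, Mmp14 and Reck were followed in the hippocampus of TIMP2 KO and WT mice. These 7 genes were taken by symbol from the 49315 gene identifiers of the deposited count table. All 7 passed the filter on low counts, which left 16486 genes to test. The study sequenced poly(A) RNA of dissected hippocampi from 30 C57BL/6J mice, of which 13 were TIMP2 KO (6 males and 7 females) and 17 were WT (10 males and 7 females). TIMP2 KO mice were the constitutive knockout line of the Jackson Laboratory, not a deletion limited to neurons, and per the study's methods the controls were WT littermates. The deleted part of the gene is not given in the sources used here. The study's methods name a pair of age ranges for its mice, both under a year, and which of them applies to the sequenced mice is not given there.

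Tissue inhibitors of metalloproteinases (TIMPs) are small secreted proteins that bind the active site of matrix metalloproteinases (MMPs), the enzymes that cleave extracellular matrix. TIMP2 also takes part in activation. At the cell surface it binds MMP14, a membrane-anchored MMP, and the pair captures the inactive form of MMP2, which a neighbouring free MMP14 then cleaves to the active form. MMP2 and MMP9 are the gelatinases, named for their action on denatured collagen, and in the brain MMP9 is known for its release at active synapses. RECK is a membrane-anchored inhibitor of MMP2, MMP9 and MMP14. The comparison of TIMP2 KO with WT asks whether the RNA of the remaining inhibitors and of their target proteases differed in the absence of intact TIMP2.

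The study also measured Mmp2 and Mmp9 with quantitative PCR, and its primers are shown because they define which stretch of each gelatinase transcript that assay reads, whereas the counts below cover all exons. They were placed on GENCODE M21 transcripts (GRCm38), and each is written 5′ to 3′ in lower case.
Mmp2 forward: caagttccccggcgatgtc
Mmp2 reverse: ttctggtcaaggtcacctgtc
Mmp9 forward: ctggacagccagacactaaag
Mmp9 reverse: ctcgcggcaagtcttcagag
The Mmp2 primers matched exon 1 (chr8:92827729-92827747) and exon 2 (chr8:92830722-92830742) and enclosed 171 bases of the spliced transcript. The Mmp9 primers matched exon 2 (chr2:164948952-164948972) and exon 3 (chr2:164949295-164949314) and enclosed 145 bases. Each pair was found in 1 of the 4 annotated transcripts of its gene, the longest of them (Mmp2-201 and Mmp9-201).

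The genes lie on 7 chromosomes, and all are annotated as protein-coding. In GRCm38, Timp2 occupies chromosome 11 from 118301069 to 118355740 on the minus strand, and Timp4 chromosome 6 from 115241892 to 115252205 on the minus strand. The other 5 are on the plus strand. Timp3 lies on chromosome 10 from 86300372 to 86349506, Mmp2 on chromosome 8 from 92827291 to 92853420 and Mmp9 on chromosome 2 from 164940780 to 164955850. Mmp14 lies on chromosome 14 from 54431612 to 54445364 and Reck on chromosome 4 from 43875530 to 43944806. Timp3 and Timp4 each sit inside a synapsin gene transcribed from the opposite strand. Timp3 shared 1733 exonic bases (21.3% of its exonic length) with Syn3, and Timp4 shared 90 (1.53%) with Syn2. The strand setting of the authors' counting is not given in the sources used here, so reads of the shared stretches could not be assigned to a strand. Syn2 was far more abundant than Timp4, with a median of 23471 counts per mouse against 1046, while Syn3 had 271 against 1710 for Timp3.

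Counts on genes per mouse ranged from 18345517 to 41081083. The hippocampal neuron markers Prox1, Wfs1, Zbtb20, Fibcd1, Spink8 and Neurod6 were present in every mouse, the lowest value being 17.4 counts per 1000000 counts (CPM) for Spink8. The Xist level matched the sex label in 30 of 30 mice. A WT male (mouse 6) and a TIMP2 KO male (mouse 18) stood apart, with 489 and 416 of 14394 genes over 3 SD from the mean of all mice, against at most 57 in any other mouse. Some results below are given with and without both, but not every relation with marker lists. The closest matches over 30 mice were found with all mice.

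Timp2, the deleted gene, was the only gene of the 7 that passed the test between the genotypes. In TIMP2 KO mice it lay between 130 and 171 CPM with a median of 161 (mean 158 ± 10.5, SD, n = 13). In WT mice it lay between 256 and 380 CPM with a median of 333 (mean 317 ± 39.8, SD, n = 17). Every TIMP2 KO mouse was thus below every WT mouse. CPM ranges without overlap were found in 2 of the 16486 genes tested (0.0121%). The level in TIMP2 KO mice was 50.1% of the WT mean. The log2 fold change was -0.999 ± 0.05 (SE), with a 95% interval of -1.11 to -0.89 and an adjusted p of 7.62e-16 in edgeR's quasi-likelihood test. A permutation test of log2 CPM gave p = 1e-05, the smallest that 100000 resamples can give.

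The remaining Timp2 reads amounted to 2980 to 6682 counts per TIMP2 KO mouse. The table holds 1 count per gene and mouse, so the part of the gene from which these reads came could not be read from it. An RNA that lacks the deleted part and an intact RNA at a lower level cannot be told apart in such counts. In bulk tissue, fewer cells that express a gene and less RNA per cell likewise cannot be told apart. For the protein, the study's immunoblot of hippocampal interstitial fluid showed no TIMP2 band in TIMP2 KO mice. Per its supplementary methods, heterozygous mice were left out of the sequencing analysis.

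Timp2 also varied less among TIMP2 KO mice than among WT mice, with a coefficient of variation of 6.63% against 12.6%; this difference in spread was not tested. The WT values left a gap, with 8 mice (4 males and 4 females) between 256 and 304 CPM and 9 mice (6 males and 3 females) between 333 and 380 CPM, and whether this gap exceeds what chance gives was not tested. Among TIMP2 KO mice, 12 of 13 lay between 149 and 171 CPM. The exception was mouse 18, at 130 CPM.

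**Figure D1:**
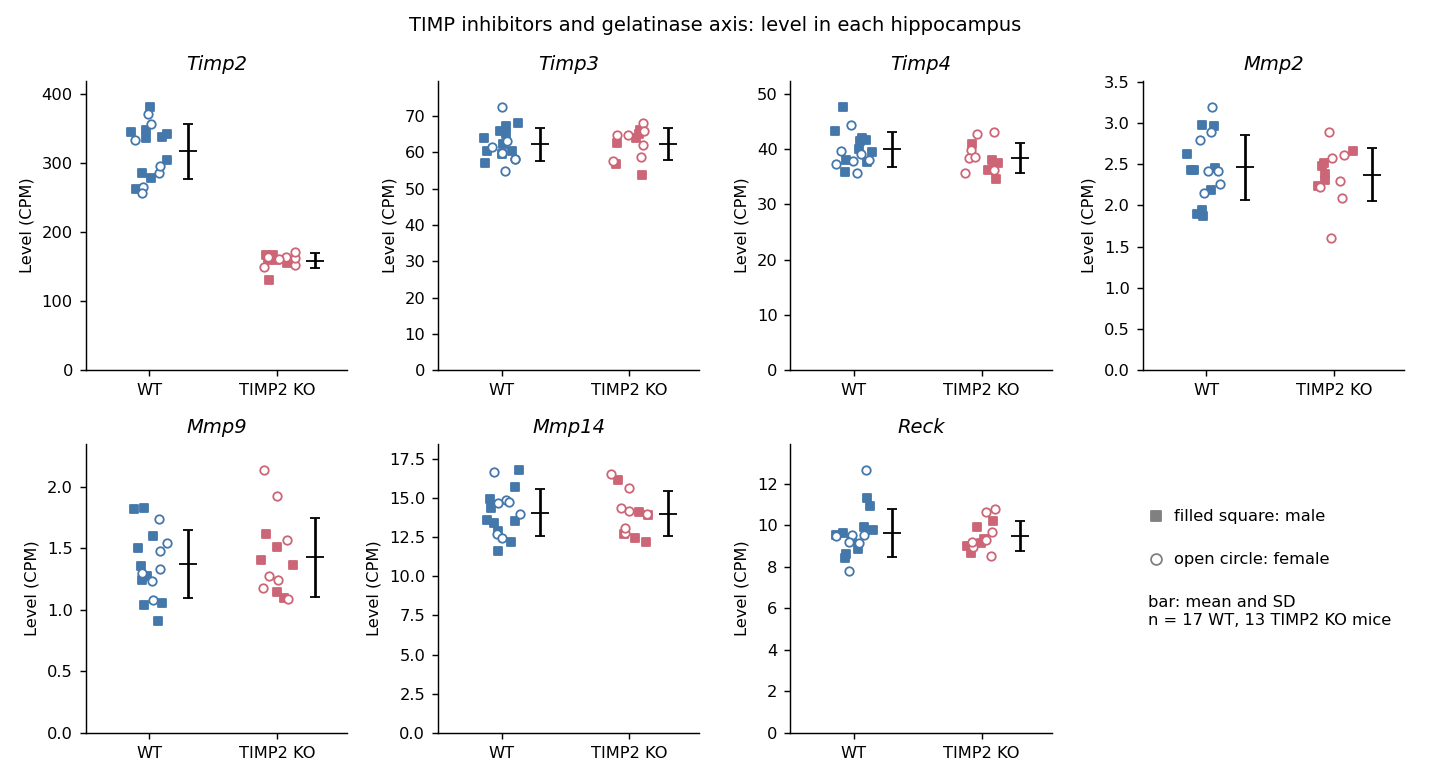
Level of each gene in CPM (y axis from 0) in every mouse, by genotype (x axis), with males as filled squares and females as open circles; the bar beside each group is the mean with its SD (17 WT, 13 TIMP2 KO). Timp2 lies between 130 and 171 CPM in TIMP2 KO mice and between 256 and 380 CPM in WT mice, and the ranges of the other 6 genes overlap.

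Of the 7 genes, 1 was called at an adjusted p under 0.05, against 9 of all 16486 genes tested (0.0546%). At an unadjusted p under 0.05 it was again Timp2 alone, against 829 genes in all (5.03%). The median log2 fold change was -0.02 over the 7 genes and 0.0001 over all genes tested.

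The other inhibitors stayed close to their WT levels. Timp3 encodes the inhibitor that binds to the matrix itself and acts on ADAM proteases as well as MMPs. It lay between 53.9 and 68.0 CPM in TIMP2 KO mice (median 63.9, mean 62.3 ± 4.29, SD, n = 13) and between 54.8 and 72.4 CPM in WT mice (median 61.4, mean 62.3 ± 4.52, SD, n = 17). Of the 13 TIMP2 KO mice, 12 lay inside the WT range. The log2 fold change was 0.0007 ± 0.04 (SE), and its 95% interval ran from -0.07 to 0.07, which is a change of -4.86% to 5.21%.

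Timp4 encodes an inhibitor with a narrow tissue distribution that includes the brain and the heart. It lay between 34.5 and 43.1 CPM in TIMP2 KO mice (median 38.1, mean 38.4 ± 2.67, SD, n = 13) and between 35.6 and 47.6 CPM in WT mice (median 39.5, mean 40.0 ± 3.14, SD, n = 17). The groups overlapped, and 9 of 13 TIMP2 KO mice were below the WT median. The log2 fold change of -0.06 ± 0.04 (SE) did not pass the test (edgeR adjusted p = 0.998), and the 95% interval corresponds to a change of -8.86% to 1.34%. With sex and the choroid plexus, meningeal fibroblast and mural marker scores as covariates, the value was -0.11 (unadjusted p = 0.0140, adjusted p = 0.782). The adjusted p of Timp4 lay between 0.760 and 1.00 over the 41 alternatives that give one. Of the 5 choroid plexus markers tested, 3 had an unadjusted p under 0.05 with a higher mean in TIMP2 KO mice, against 5.03% of all genes tested in either direction. Of these, Ttr passed adjustment (edgeR adjusted p = 0.0326), and Clic6 and Prlr did not (adjusted p = 0.578 and 0.8503). The summed level of all 10 markers was 29.4 to 722 CPM in TIMP2 KO mice (median 38.2) and 25.9 to 67.7 CPM in WT mice (median 34.4), so the medians were close and the ranges differed at their upper end. Kl alone averaged 27.1 CPM in TIMP2 KO and 24.9 CPM in WT mice and so weighs heavily in these medians. The score, the mean log2 CPM of the 5 tested markers, was 1.97 ± 1.11 in TIMP2 KO and 1.34 ± 0.589 in WT mice (SD). The difference in score was not tested. No marker of this list was at 0 in all mice of either genotype. Across mice, the choroid plexus score and Timp4 had r = 0.642 in WT mice (rho = 0.449; permutation p = 0.00549 and 0.0719, adjusted p = 0.168 and 0.496) and 0.518 without the 2 mice farthest from the median of Timp4. In TIMP2 KO mice, where this score varied more, r was 0.191 (rho = -0.0714; permutation p = 0.534 and 0.821, adjusted p = 0.843 and 0.962), and -0.150 without the 2 farthest mice.

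The fourth family member, Timp1, which is known as an inducible inhibitor, had 0 to 12 counts per mouse and none in 6 of the 30 mice. It did not pass the filter on low counts and was not tested. A count of 0 allows up to 3 counts, and such limits cover counting error alone.

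Per kilobase of exon, Timp2 made up most of the TIMP RNA in either genotype. Its share of the summed Timp2, Timp3 and Timp4 level per kilobase was 81.7% to 87.9% in WT mice (mean 84.8% ± 1.73, SD, n = 17) and 68.9% to 76.6% in TIMP2 KO mice (mean 74.1% ± 2.16, SD, n = 13). The remaining Timp2 RNA of TIMP2 KO mice may lack the deleted part, so the full exonic length may not apply to it. This limits every Timp2 value per kilobase given for these mice, here and below. Counts also do not show whether that RNA encodes a working inhibitor. The summed level of the 3 inhibitors fell from 95.7 ± 10.3 to 54.8 ± 2.52 CPM per kb (SD), without overlap of the groups (79.0 to 111 against 48.4 to 58.4). Timp2 is the largest part of this sum, so the separation restates that of Timp2 and is no separate result. That of Timp3 and Timp4 together was 14.4 ± 0.798 CPM per kb in WT and 14.2 ± 0.893 CPM per kb in TIMP2 KO mice (SD), and these groups overlapped. The upper ends of the 95% intervals given above, over both sexes, were a rise of 5.21% for Timp3 and 1.34% for Timp4. On the log2 scale they were 0.15 and 0.12 in females alone, and 0.06 and -0.02 in males alone.

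Mmp14, the membrane-anchored activator of MMP2, showed no detectable difference between the genotypes. It lay between 12.2 and 16.5 CPM in TIMP2 KO mice (median 14.0, mean 14.0 ± 1.42, SD, n = 13) and between 11.6 and 16.8 CPM in WT mice (median 14.0, mean 14.1 ± 1.49, SD, n = 17). All 13 TIMP2 KO mice lay inside the WT range. The log2 fold change was -0.004 ± 0.05 (SE), with a 95% interval that corresponds to -7.42% to 7.39%. The ratio of Timp2 to Mmp14 per kilobase was 27.2 to 45.1 in WT mice and 14.9 to 21.0 in TIMP2 KO mice, without overlap. With Mmp14 at like levels in both genotypes, this too restates the Timp2 difference. These ratios depend on the length used. With the longest transcript of each gene they were 15.5 to 25.7 in WT and 8.49 to 12.0 in TIMP2 KO mice, and the groups still did not overlap.

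Reck, the membrane-anchored inhibitor, lay between 8.53 and 10.8 CPM in TIMP2 KO mice (median 9.30, mean 9.50 ± 0.717, SD, n = 13). In WT mice it lay between 7.81 and 12.7 CPM (median 9.53, mean 9.64 ± 1.14, SD, n = 17). All 13 TIMP2 KO mice were inside the WT range. Its log2 fold change was -0.02 ± 0.05 (SE), and the 95% interval corresponds to -8.19% to 6.31%.

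Both gelatinases were present at low levels. Mmp2 had 46 to 120 counts per mouse. It lay between 1.60 and 2.89 CPM in TIMP2 KO mice (median 2.38, mean 2.37 ± 0.316, SD, n = 13) and between 1.87 and 3.19 CPM in WT mice (median 2.42, mean 2.46 ± 0.395, SD, n = 17). The groups overlapped almost fully, with 12 of 13 TIMP2 KO mice inside the WT range and 7 of 13 below the WT median. The log2 fold change was -0.05 ± 0.08 (SE; edgeR adjusted p = 0.998), and the 95% interval corresponds to a change of -13.9% to 8.67%. Differences within this interval remain possible. In a single mouse, counting alone contributes a coefficient of variation of 12.4% at the median count of 65.5. The estimated variation between mice beyond counting was 10.6%. By quantitative PCR the study reported significantly higher Mmp2 RNA in TIMP2 KO hippocampus, with more MMP2 protein, and no significant change of Mmp9 RNA. The counts did not show that rise of Mmp2. Whether the same mice served both assays is not given, and the difference between the assays was not tested.

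Mmp9 had 21 to 53 counts per mouse and was the lowest of the 7 genes. It lay between 1.09 and 2.14 CPM in TIMP2 KO mice (median 1.37, mean 1.43 ± 0.321, SD, n = 13) and between 0.908 and 1.83 CPM in WT mice (median 1.33, mean 1.37 ± 0.276, SD, n = 17). The highest values belonged to TIMP2 KO females, and the lowest to a WT male, within ranges that overlapped. Its log2 fold change was 0.04 ± 0.11 (SE; edgeR adjusted p = 0.998), and the 95% interval corresponds to -11.7% to 20.0%, the widest of the 7. Neutrophils store MMP9 protein, and their 10 markers summed to 0.342 to 6.80 CPM in TIMP2 KO and 0.433 to 2.43 CPM in WT mice. None of these 10 passed the filter on low counts, and Elane was at 0 in every TIMP2 KO mouse.

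**Figure D2:**
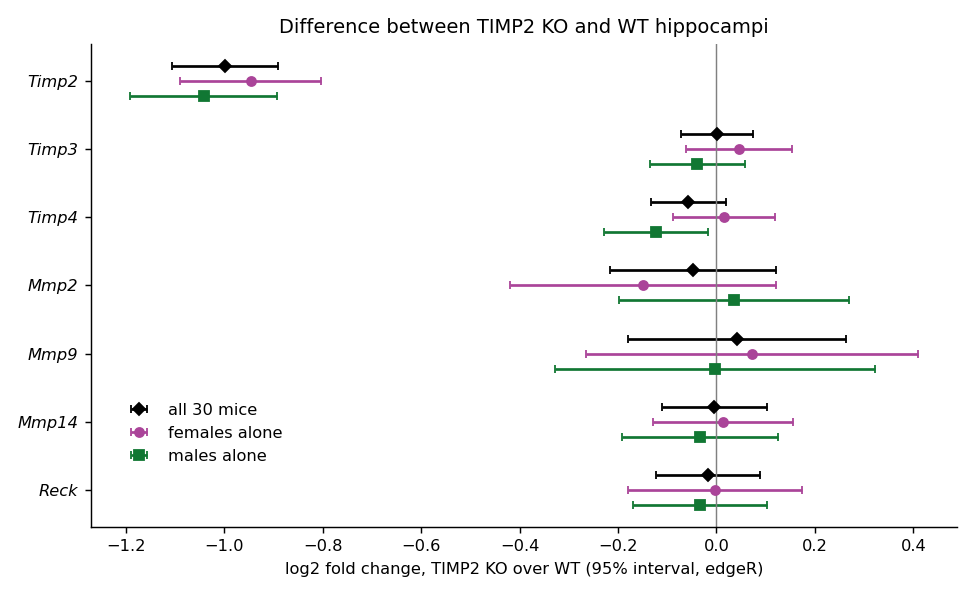
Log2 fold change of TIMP2 KO over WT (x axis) for each gene, with 95% intervals from edgeR, in all 30 mice (diamonds), females alone (circles) and males alone (squares). The intervals of Timp2 lie between -1.19 and -0.80, and all others cross 0 except that of Timp4 in males alone (-0.23 to -0.02).

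The sexes were pooled in these comparisons, as in the study, and the values were then taken apart by sex. Timp2 was lower in TIMP2 KO mice by 0.95 ± 0.07 on the log2 scale in females and by 1.04 ± 0.07 in males (SE). Timp4 showed the largest contrast between the sexes relative to its error. In males it was 37.4 ± 2.17 CPM in TIMP2 KO (n = 6) and 40.7 ± 3.29 CPM in WT mice (n = 10), and in females 39.2 ± 2.91 and 38.8 ± 2.75 CPM (SD, n = 7 each). Its log2 fold change was -0.12 ± 0.05 in males (edgeR unadjusted p = 0.0241, adjusted p = 1.00) and 0.02 ± 0.05 in females. The interaction of sex and genotype for Timp4 had an unadjusted p of 0.0735 and an adjusted p of 1.00 in edgeR, so a difference between the sexes was not shown.

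The interaction was called for 0 of the 7 genes in edgeR and in DESeq2 at an adjusted and at an unadjusted p under 0.05; over all genes tested edgeR called 0 of 16486 after adjustment (0%) and 423 before it (2.57%). Without mice 6 and 18, the Timp4 interaction reached an unadjusted p of 0.0498 in edgeR, with an adjusted p of 1.00. Between males and females, with genotype in the model, again 0 of the 7 genes were called at either threshold in edgeR and in DESeq2, against 0.218% of all genes tested by edgeR after adjustment and 9.77% before it. The largest difference between the sexes among the 7 was that of Mmp9, -0.07 ± 0.11 on the log2 scale (SE, males minus females).

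Divided by exonic length, the 7 genes fell into the same order in both genotypes. In WT mice, Timp2 stood at 81.2 ± 10.2 CPM per kb, followed by Timp3 at 7.65 ± 0.555 and Timp4 at 6.78 ± 0.532 (SD, n = 17). Mmp14 at 2.36 ± 0.250 and Reck at 2.02 ± 0.238 formed the next step, and the gelatinases came last with Mmp2 at 0.731 ± 0.117 and Mmp9 at 0.388 ± 0.0779 CPM per kb. Within a mouse the order was nearly constant. Timp3 exceeded Timp4 in 16 of 17 WT and 13 of 13 TIMP2 KO mice, and Mmp14 exceeded Reck in 15 of 17 and 11 of 13. The ranges over mice of Timp3 and Timp4 overlapped in each genotype, as did those of Mmp14 and Reck. Those of Mmp2 and Mmp9 overlapped in TIMP2 KO mice. The length chosen moves these values: with the longest transcript of each gene, Timp3 stood at 13.2 and Mmp14 at 4.34 CPM per kb in WT mice, the order was the same, and the ranges of Timp3 and Timp4 and of Mmp14 and Reck no longer overlapped.

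**Figure D3:**
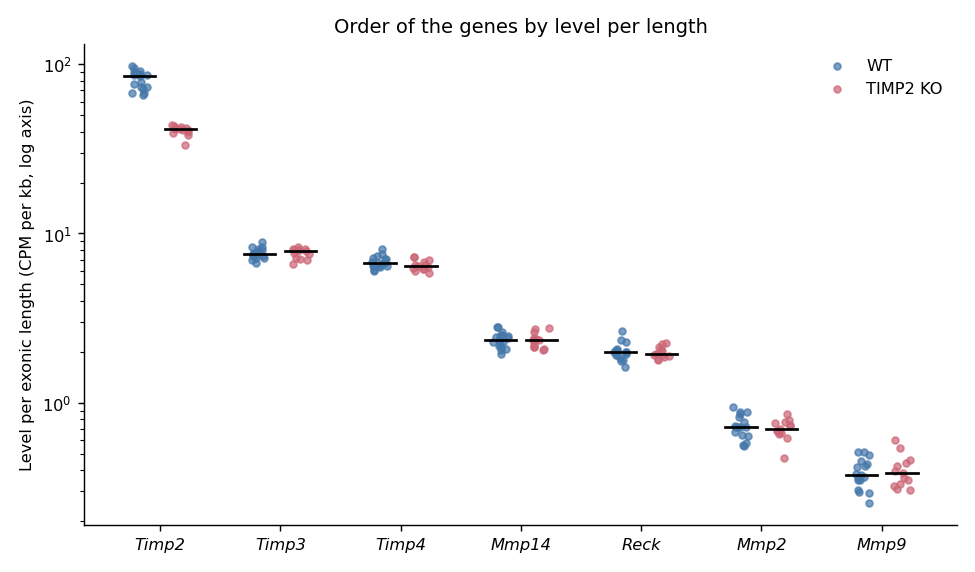
Level per exonic length (y axis, CPM per kb, log axis) of the 7 genes in every mouse, ordered by the WT mean, with the median of each genotype as a black line. Timp2 is highest in both genotypes (81.2 and 40.7 CPM per kb on average) and Mmp9 lowest (0.388 and 0.404).

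Whether the genes varied together from mouse to mouse was examined within each genotype, over 21 pairs of genes and 42 correlations in all. None had an adjusted p under 0.05 by the permutation test of r or rho, and 5 had an unadjusted p under 0.05 for r. Chance alone gives such a p in a share of 0.05 of independent tests, and these pairs share genes and mice. Of these 5, Timp3 was in 3, all among TIMP2 KO mice. There Timp3 with Reck had the highest r (r = 0.708, rho = 0.720; permutation p = 0.00732 and 0.00739, adjusted p = 0.104 and 0.103), and r was 0.643 without the 2 mice farthest from the median of Timp3. The same pair had r = 0.285 in WT mice (n = 17). Timp3 with Timp4 had r = 0.660 and rho = 0.681 in TIMP2 KO mice (permutation p = 0.0140 and 0.0126, adjusted p = 0.146 and 0.133) and r = 0.0988 in WT mice; without the 2 farthest mice r was 0.515. The third pair, Timp3 with Mmp9, had r = 0.556 and rho = 0.462 (permutation p = 0.0494 and 0.115, adjusted p = 0.415 and 0.536), and 0.381 without the 2 farthest mice. Without mice 6 and 18, its r was 0.550 (permutation p = 0.0629, adjusted p = 0.409). Timp3 with Reck and with Timp4 then had r = 0.694 and 0.632.

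Among WT mice, the other 2 pairs were Mmp2 with Reck and Mmp9 with Mmp14. Mmp2 with Reck had r = 0.633 and rho = 0.676 (permutation p = 0.00554 and 0.00417, adjusted p = 0.104 and 0.0876), with r = 0.622 in males and 0.780 in females. Without the 2 mice farthest from the median of Mmp2, r was 0.461. Mmp9 with Mmp14 had r = 0.627 and rho = 0.691 (permutation p = 0.00741 and 0.00289, adjusted p = 0.104 and 0.0876), and 0.631 without the 2 farthest mice; within sex it was 0.737 in males and 0.348 in females. In TIMP2 KO mice these pairs had r = 0.118 and r = -0.228, and the difference between the genotypes was not tested. Without mice 6 and 18, Mmp9 with Mmp14 had r = 0.5755 in WT mice (permutation p = 0.0199, adjusted p = 0.279). Mmp2 with Reck then had r = 0.634.

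Timp2 itself was in none of these pairs. Its r with the other 6 genes ran from -0.194 to 0.263 in WT mice and from -0.438 to 0.346 in TIMP2 KO mice, and the smallest unadjusted permutation p was 0.135. For Timp2 with Mmp14, its partner at the cell surface, r was 0.263 in WT and 0.346 in TIMP2 KO mice (rho = 0.272 and 0.341; permutation p = 0.306 and 0.258). For Timp2 with Mmp2, r was 0.0976 and 0.0800 (rho = 0.147 and 0.126; permutation p = 0.708 and 0.756).

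**Figure D4:**
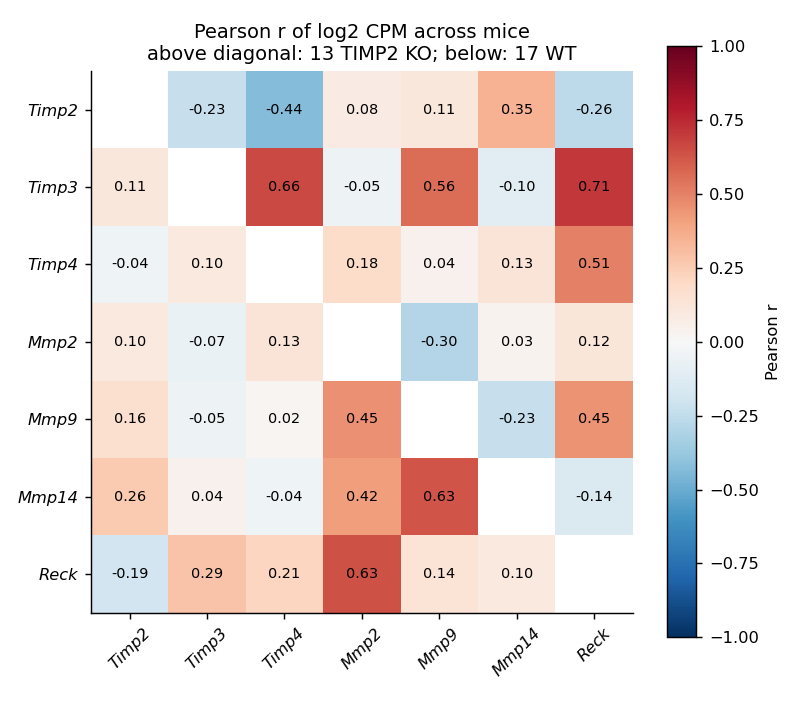
Pearson r of log2 CPM across mice for each pair of genes (rows and columns), above the diagonal in 13 TIMP2 KO mice and below it in 17 WT mice, with red for positive and blue for negative r. The 5 largest are 0.71, 0.66, 0.63, 0.63 and 0.56, none of which passed adjustment over 42 correlations, and the Timp2 row and column hold none of them.

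No relation of the 7 genes with 10 lists of cell type markers passed adjustment (0 of 140 by the permutation test of r or rho, with 13 at an unadjusted p under 0.05 for r). Here too chance alone gives a share of 0.05 in independent tests, and how often other genes reach such r was not examined. With the mean log2 CPM of 10 astrocyte markers, Timp3 had r = 0.717 in TIMP2 KO mice (rho = 0.670; permutation p = 0.00537 and 0.0152) and r = 0.672 in WT mice (rho = 0.591; permutation p = 0.00315 and 0.0141). The adjusted p was 0.168 for each r and 0.380 for each rho. Without the 2 mice farthest from the median of Timp3, r was 0.484 and 0.488. Timp4 had r = 0.697 with the same list in TIMP2 KO mice (rho = 0.824; permutation p = 0.00763 and 0.00096, adjusted p = 0.168 and 0.134), and 0.628 without the 2 mice farthest from the median of Timp4. In WT mice the same relation had r = 0.0724 (rho = -0.0392; permutation p = 0.784 and 0.883, adjusted p = 0.964 and 0.962), and the difference between the genotypes was not tested. Astrocyte markers were not alone in this. In TIMP2 KO mice, Timp4 with microglia markers had r = 0.711 (rho = 0.643, permutation p = 0.00756 and 0.02005, adjusted p = 0.168 and 0.380), and 0.622 without the 2 farthest mice. Timp3 with oligodendrocyte precursor markers had r = 0.684 there (rho = 0.615, permutation p = 0.0096 and 0.0283, adjusted p = 0.168 and 0.380), and 0.284 without the 2 farthest mice. Timp3 with mural markers had r = 0.498 in TIMP2 KO mice (rho = 0.621; permutation p = 0.0833 and 0.0277, adjusted p = 0.486 and 0.380) and r = 0.587 in WT mice (rho = 0.581; permutation p = 0.0137 and 0.0161, adjusted p = 0.212 and 0.380).

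Timp2 had negative coefficients with microglia and oligodendrocyte markers in both genotypes, while its r with oligodendrocyte precursor markers was 0.104 in WT and -0.238 in TIMP2 KO mice. In WT mice Timp2 had r = -0.678 with microglia markers (rho = -0.649; permutation p = 0.00177 and 0.00544, adjusted p = 0.168 and 0.380) and r = -0.568 with oligodendrocyte markers (rho = -0.549; permutation p = 0.0183 and 0.0248, adjusted p = 0.256 and 0.380). Without the 2 mice farthest from the median of Timp2 these were -0.553 and -0.578. In TIMP2 KO mice r with microglia markers was -0.549 (rho = -0.560; permutation p = 0.0354 and 0.0508, adjusted p = 0.413 and 0.474), and -0.244 without the 2 farthest mice. Without mouse 18 it was -0.443 (permutation p = 0.150, adjusted p = 0.676). With oligodendrocyte markers r was -0.547 in TIMP2 KO mice (rho = -0.511, permutation p = 0.0724 and 0.0775, adjusted p = 0.481 and 0.496). In these mice Timp2 had r = 0.654 with meningeal fibroblast markers (rho = 0.610, permutation p = 0.0238 and 0.0302, adjusted p = 0.303 and 0.380), and 0.115 without the 2 farthest mice. With endothelial markers it had r = -0.582 (rho = -0.659, permutation p = 0.0471 and 0.0167, adjusted p = 0.481 and 0.380), and -0.752 without the 2 farthest. For Mmp2 no r with a list had an unadjusted p under 0.05, while rho with neuron markers in TIMP2 KO mice was -0.604 (permutation p = 0.0326, adjusted p = 0.380). Its r with the lists lay between -0.292 and 0.294, including 0.154 (TIMP2 KO) and 0.219 (WT) with meningeal fibroblast markers. Timp3 with Syn3 had r = 0.378 in TIMP2 KO and 0.149 in WT mice, and Timp4 with Syn2 had r = -0.0379 and 0.0637, and none passed the permutation test (rho between -0.0549 and 0.199, permutation p from 0.204 to 0.902 over r and rho, adjusted p from 0.789 to 0.902; 4 relations).

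Each of the 7 genes was then compared with 14389 genes of at least 1 CPM on average, over 30 mice after removal of the genotype means, to name the 3 whose pattern over mice was most like it. Timp2 had the closest matches of the 7: Rbm20 (an RNA-binding splicing regulator) at r = 0.868, Tpbg (the trophoblast glycoprotein) at 0.867 and Nr2f2 (the nuclear receptor COUP-TFII) at 0.861. Taken by genotype, Timp2 with Nr2f2 had r = 0.944 in WT mice, where Nr2f2 lay between 19.6 and 43.9 CPM, and 0.864 in TIMP2 KO mice, where it lay between 13.9 and 42.5 CPM. On either side of the gap in the WT values, r with Nr2f2 was 0.803 over the 8 lower and 0.691 over the 9 higher mice. With Rbm20 it was 0.683 and 0.710, and with Tpbg 0.773 and 0.409. The split was made on Timp2 itself at a gap seen in these data, so these values are a description and were not tested.

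For the other genes the closest matches were weaker. Timp3 was most like Farp1 (0.759), Aldh6a1 (0.690) and Naalad2 (0.684), and Reck most like Nat8f4 (0.752), Mgst1 (0.736) and Naaa (0.728). Timp4 was most like Agtrap (0.656), Notch4 (0.634) and Cyp2j9 (0.629). For Mmp14 the genes were Rph3al (0.656), Cntn6 (0.617) and Aqp4 (0.606), the last being the astrocyte water channel. For Mmp2 they were D3Ertd751e (0.671), Hopx (0.630) and Nat8f4 (0.624), and for Mmp9 Cpne5 (0.631), Pitpnm3 (0.631) and Kifc2 (0.624). The match of Mmp2 with Nat8f4 came from WT mice, where r was 0.861, against 0.057 in TIMP2 KO mice, a difference that was not tested. Reck with Nat8f4 had r = 0.770 and 0.693. These r values are the highest of 14389 per gene and were chosen for that, so they are given without a test.

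To obtain a test that the choice did not use, the 3 closest genes were chosen in the mice of one genotype and their correlation was then tested in the mice of the other, giving 42 relations, a procedure added after the data were seen. Of the 6 relations of Timp2, 4 had an adjusted p under 0.05, against 0 of 36 for the other genes. Nr2f2, Trhr (a thyrotropin-releasing hormone receptor) and Baiap3 (a regulator of dense-core vesicle traffic), chosen in WT mice, had r = 0.864, 0.880 and 0.869 in TIMP2 KO mice (permutation p from 0.00302 to 0.00359, adjusted p = 0.0377 for each). Their rho was lower, at 0.665, 0.593 and 0.731 (permutation p from 0.0065 to 0.0362, adjusted p from 0.135 to 0.221). Nxph2, chosen in TIMP2 KO mice, had r = 0.685 in WT mice (rho = 0.703; permutation p = 0.00303 and 0.00235, adjusted p = 0.0377 and 0.0987). Trhr, Baiap3 and Nxph2 were named after their values were seen.

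The 3 relations tested in TIMP2 KO mice rested on mouse 18. This mouse had the lowest Timp2 of all (130 CPM, where its group otherwise spanned 149 to 171) and also the lowest Nr2f2 (13.9 CPM against 25.9 to 42.5), Trhr (0.997 against 5.62 to 13.9) and Baiap3 (1.96 against 4.94 to 8.62). Without mice 6 and 18, r with Nr2f2 was 0.503 in TIMP2 KO mice (rho = 0.573; permutation p = 0.0965 and 0.0565, adjusted p = 0.383 and 0.375), and r with Trhr and Baiap3 was 0.502 and 0.497. Nxph2 tested in WT mice kept r = 0.674 (rho = 0.682; permutation p = 0.0055 and 0.00459), with an adjusted p of 0.129 and 0.0964. Genes chosen anew without these mice had Glt1d1 in place of Fam81a, and 0 of the 6 relations of Timp2 passed adjustment. In WT mice, where Nr2f2 was chosen for its high r, r was 0.943 without mouse 6, which is a description and no test.

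**Figure D5:**
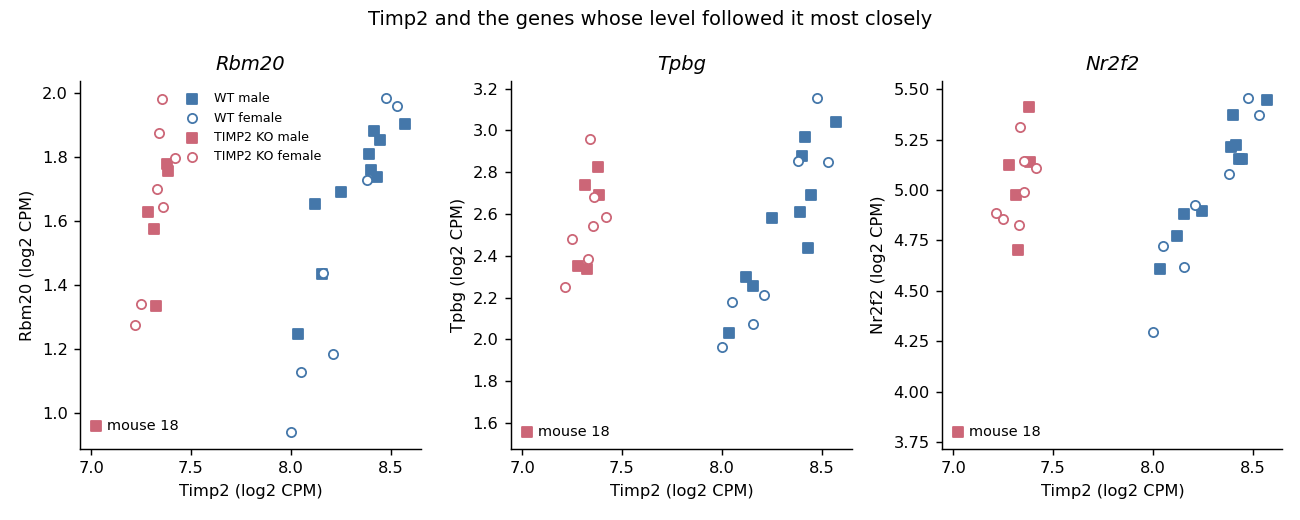
Log2 CPM of Rbm20, Tpbg and Nr2f2 (y axes) against that of Timp2 (x axes) in every mouse, coloured by genotype, with males as filled squares and females as open circles. In WT mice the 3 genes rise with Timp2 (r = 0.899, 0.900 and 0.944), and among TIMP2 KO mice the labelled mouse 18 lies apart at the lowest Timp2 level.

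No gene of the wider pathway passed adjustment. Of 52 genes in 6 lists around these proteins, 44 passed the filter on low counts, 0 had an adjusted p under 0.05 and 1 had an unadjusted p under 0.05 in edgeR's quasi-likelihood test, against 5.03% of all genes. That gene was Mmp15, another membrane-type MMP, at 19.1 ± 1.58 CPM in TIMP2 KO and 17.8 ± 1.51 CPM in WT mice (SD), with a log2 fold change of 0.11 ± 0.04 (SE; unadjusted p = 0.0164, adjusted p = 0.928). Of the 5 membrane-type MMPs beside Mmp14, 4 were tested, with a median log2 fold change of 0.02. The highest per length was Mmp17, at 41.7 CPM per kb in WT mice, well above Mmp14 at 2.36 CPM per kb.

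Of the 9 genes in the list of other secreted MMPs and Timp1, 3 were tested, namely Mmp11, Mmp19 and Mmp28, and the other 6 (Mmp3, Mmp8, Mmp10, Mmp12, Mmp13 and Timp1) had too few counts. The median log2 fold change of the 3 was -0.06, and the highest per length was Mmp28, at 0.717 CPM per kb in WT mice. The protease activation cascade list included plasminogen, its activators and their serpin inhibitors, and, apart from these, furin, the protease that activates MMP14. Of its 8 genes, 7 were tested, with a median log2 fold change of -0.02. The highest per length was Serpine2, a serpin that inhibits plasminogen activators, at 21.8 CPM per kb in WT mice. Plg, which encodes plasminogen, had too few counts for a test.

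The 7 surface receptors and clearance genes, among them Itga3 and Itgb1 for the integrin that binds TIMP2 and Lrp1 for the receptor that takes up MMP and TIMP complexes, had a median log2 fold change of 0.001. Itgb1 was the highest per length, at 14.2 CPM per kb in WT mice. The 10 partners of TIMP3 and RECK, which include the sheddases Adam10 and Adam17 and the Wnt ligands Wnt7a and Wnt7b that signal through RECK, had a median of 0.01, and Adam10 was highest at 22.0 CPM per kb. The 13 gelatinase substrates, basement membrane proteins and brain proteoglycans, had a median of -0.02. Among them the proteoglycan gene Bcan was highest per length, at 50.5 CPM per kb in WT mice. Across these lists, none of the tested genes besides Mmp15 had an unadjusted p under 0.05.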

How the data were processed

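The authors deposited an unnormalized table of raw read counts by gene and mouse. The submitters' processing notes name Trimmomatic 0.36, STAR 2.5.2b, featureCounts, Subread 1.5.2 and GRCm38 (mm10). The strand setting and the annotation release are not given in the sources used here. Each of its 30 columns matched 1 mouse, and no columns were identical. TMM factors, filterByExpr and the quasi-likelihood test were run in edgeR 4.0.16 (R 4.3.3) across 16486 genes, with Benjamini-Hochberg adjustment over all of them. Log2 CPM used a prior count of 2, and levels per kilobase used the GENCODE M21 exons of each gene. Correlations used 100000-resample 2-sided permutation tests in Python 3.11.15. Alternatives were RLE factors, DESeq2 1.42.0, limma 3.58.1 voom, other filters, covariates, single sexes and leaving out each mouse. The scripts were tested on simulated data. Genes and lists were chosen with earlier results of these data known. Named genes were the 7 members, list genes with an unadjusted p under 0.05, Timp1, the highest gene per length of a list, and the 3 most alike genes of each member. The marker lists were choroid plexus, meningeal fibroblast, endothelial, mural, astrocyte, oligodendrocyte, oligodendrocyte precursor, microglia, neuron, neutrophil and red blood cell.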

Additional observations from a re-analysis of the deposited data

Results flagged for a closer look

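Of 28 groups of mice (7 genes, each genotype and sex apart), 2 held a mouse whose gap to the rest exceeded Dixon's 95% limit, while chance gives that for about 1 in 20 groups, here 1.4. Timp2 in TIMP2 KO males was lowest in mouse 18, at a log2 CPM of 7.023 against 7.282 to 7.385 in the other 5 males, or 130 CPM against 156 to 167. This is the mouse with 416 of 14394 genes over 3 SD from the mean of all mice, and the Timp2 difference between the genotypes was past the threshold with and without it. Reck in WT females was highest in mouse 4, at a log2 CPM of 3.672 against 2.979 to 3.266 in the other 6 females, or 12.7 CPM against 7.81 to 9.55.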

How the results depend on the processing

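Timp2 was called lower in TIMP2 KO mice, and no other gene of the 7 was called after adjustment, across the 41 alternatives with an adjusted p, which covered other size factors, tests, filters and covariates, each sex alone and leaving out 1 mouse at a time. Leaving out 1 mouse at a time, the log2 fold change of Timp2 lay between -1.02 and -0.98 and 1 gene was called each time. The interaction, the difference between the sexes, the correlations among the genes and those with marker lists gave 0 calls after adjustment under each alternative. Of the 6 relations of Timp2 with genes chosen in the other genotype, 4 passed adjustment, as with RLE size factors, and 0 without mice 6 and 18, where 1 of the 6 genes was another and Nxph2 in WT mice had r = 0.674 against 0.685.

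Signs of log2 fold changes near 0 changed, each with an adjusted p of at least 0.947. Timp3 (0.0007) was -0.000276 with at least 10 counts in every mouse, -0.0345 with the choroid plexus, meningeal fibroblast and mural covariates, -0.0392 in males alone, -0.00793 without mice 6 and 18, and -0.0104 to 0.0169 leaving out 1 mouse at a time. Mmp14 (-0.004) was 0.000668 in limma voom, 0.00965 with the same covariates, 0.0375 with the astrocyte, oligodendrocyte and microglia covariates, 0.0133 in females alone, and -0.0275 to 0.0137 leaving out 1 mouse. Timp4 was 0.0151 in females alone, Mmp2 0.0362 and Mmp9 -0.00389 in males alone. Leaving out 1 mouse, Mmp9 lay between -0.0064 and 0.0728, Reck between -0.0341 and 0.0116, Timp4 between -0.07 and -0.04 and Mmp2 between -0.08 and -0.01. Between males and females, Timp4 was -0.00947 without mice 6 and 18. Leaving out mice 6 and 18, the correlations with Syn3 and Syn2, the longest-transcript length and the test across genotypes were chosen after the data were seen.

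Depth limits Mmp9 and Mmp2 most. No paired analysis was possible because the labels number each mouse once over both genotypes. Where nothing ties mice to litters, p-values measure only the spread between these mice. The study's supplementary methods treat the date of isolation or harvest as a batch in its network analysis. The labels used here give no such date, so no fit held it as a term, and its part in the results was not tested.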

Other observations

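Among the marker lists, the genes with an unadjusted p under 0.05 in edgeR between TIMP2 KO and WT mice were 3 of 5 tested choroid plexus genes (all with a higher mean, with an adjusted p of 0.0326 for Ttr, 0.578 for Clic6 and 0.8503 for Prlr), 1 of 10 endothelial genes (Slco1a4, lower by 0.10 on the log2 scale), 1 of 10 astrocyte genes (Gfap, higher by 0.09) and 1 of 10 neuron genes (Tubb3, higher by 0.07). In the meningeal fibroblast (9 tested), mural (10), oligodendrocyte (10), oligodendrocyte precursor (8), microglia (10) and red blood cell (4) lists it was 0. These genes outside the rule for named genes were named after their values were seen.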
